A study of Homo sapiens with 4 samples.

Results

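The genes described here are 46 autophagy and lysosome genes, given as a list of symbols. All 46 were found among the 57820 genes of the count files, by gene identifier. All 46 passed the filter on low counts that left 16468 genes for testing, DRAM1 only through its treated libraries. The samples were SY5Y cells, a human neuroblastoma cell line that the labels describe as MYCN wild type. Cells received the solvent DMSO or SGSS05-NS, named SGSS05-NS3 in the study, a covalent inhibitor of the lysine methyltransferase SETD8. RNA was taken 12 h after treatment, with 2 libraries per condition. The labels give a dose of 3 μM, as does a figure legend of the study, while its methods give a lower dose for this cell line. No allele or other agent distinguished the conditions, and the line stands for 1 tumour. The study describes the 2 libraries of a condition as independent biological replicates.

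Autophagy delivers cytoplasm to the lysosome for breakdown. The ULK kinase complex starts the process, a lipid kinase complex built on PIK3C3 and BECN1 marks the membrane, and ATG9A, the ATG2 lipid transfer proteins and the WIPI proteins help it grow. A pair of ubiquitin-like systems then conjugates proteins of the ATG8 family (the LC3 and GABARAP proteins) to lipid, receptors such as NBR1 and OPTN link cargo to them, and the closed vesicle fuses with a lysosome that holds cathepsins. TFEB, TFE3 and MITF are related transcription factors that bind the promoters of many lysosomal genes. In most cells, neuronal tumour cells included, the pathway runs at a basal rate and answers starvation, protein damage and genotoxic stress.

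Gene totals were between 21463105 and 25350204 fragments per library. Of all fragments, 12.3% and 12.4% with DMSO and 15.3% and 16.1% with SGSS05-NS matched no annotated exon on the counted strand. Against exons of either strand these shares were 11.8% and 12.0%, then 14.7% and 15.5%, and the part of this shift in the results was not tested. Replicates differed by more than sampling noise, the chi-square divided by its degrees of freedom being 8.76 in the DMSO pair and 11.8 in the SGSS05-NS pair. Of 9 neuroblast markers, TH had at most 2 fragments in any library and the other 8 were expressed. The summed level of the 9 markers was 2859 and 3067 CPM (fragments of a gene relative to the library total, scaled by the TMM method) with DMSO and 1852 and 1635 CPM with SGSS05-NS, and 5 of them were called lower. The sum over 5 fibroblast markers stayed between 4.93 and 6.82 CPM, with DCN at 0, and that over 4 blood cell markers between 0 and 0.0425 CPM. Whether the shift in neuroblast markers had a part in the values below was not tested. In bulk RNA, fewer cells of a type and less RNA per cell cannot be told apart.

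Of the 46 genes, 8 rose and 2 fell with SGSS05-NS at an adjusted p under 0.001, the false discovery rate the study uses. The test was the quasi-likelihood F-test of edgeR, with p-values adjusted by the Benjamini-Hochberg method across all genes tested, and SE below is the standard error of the fitted log2 fold change. Over all 16468 genes tested, 6.37% were called higher and 8.14% lower. The share of higher calls among the 46 was thus above that of all genes, and the share of lower calls was below it. The 46 were chosen with earlier results of these data known. This comparison and those that follow are therefore descriptions and no independent support. The genes that rose were DRAM1, GABARAPL1, TFEB, MAP1LC3A, MAP1LC3B, TFE3, ULK1 and ATG101, and those that fell were ATG10 and UVRAG. The median log2 fold change of the 46 was 0.17 against 0.01 for all genes tested, and 33 of them had a positive value. At an adjusted p under 0.05, 16 rose and 9 fell, where 22.6% of all genes were called higher and 23.7% lower, so the share of higher genes was again above the background and that of lower genes slightly below it. In 29 of the 46, both SGSS05-NS libraries lay above both DMSO libraries, and in 11 both lay below. Over all genes tested these orders were found in 37.8% and 36.9%. The edgeR likelihood ratio test, which the study names, called 12 of the 46 higher (26.1%) and 7 lower (15.2%), where it called 12.3% of all genes higher and 13.8% lower. The share of higher calls was thus above that of all genes in this fit too, while the share of lower calls was slightly above it instead of below. The number of lower calls also varied when single libraries were left out, in fits with 1 library left in a condition. In each of those fits the share of lower calls among the 46 stayed below that of all genes.

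**Figure D1:**
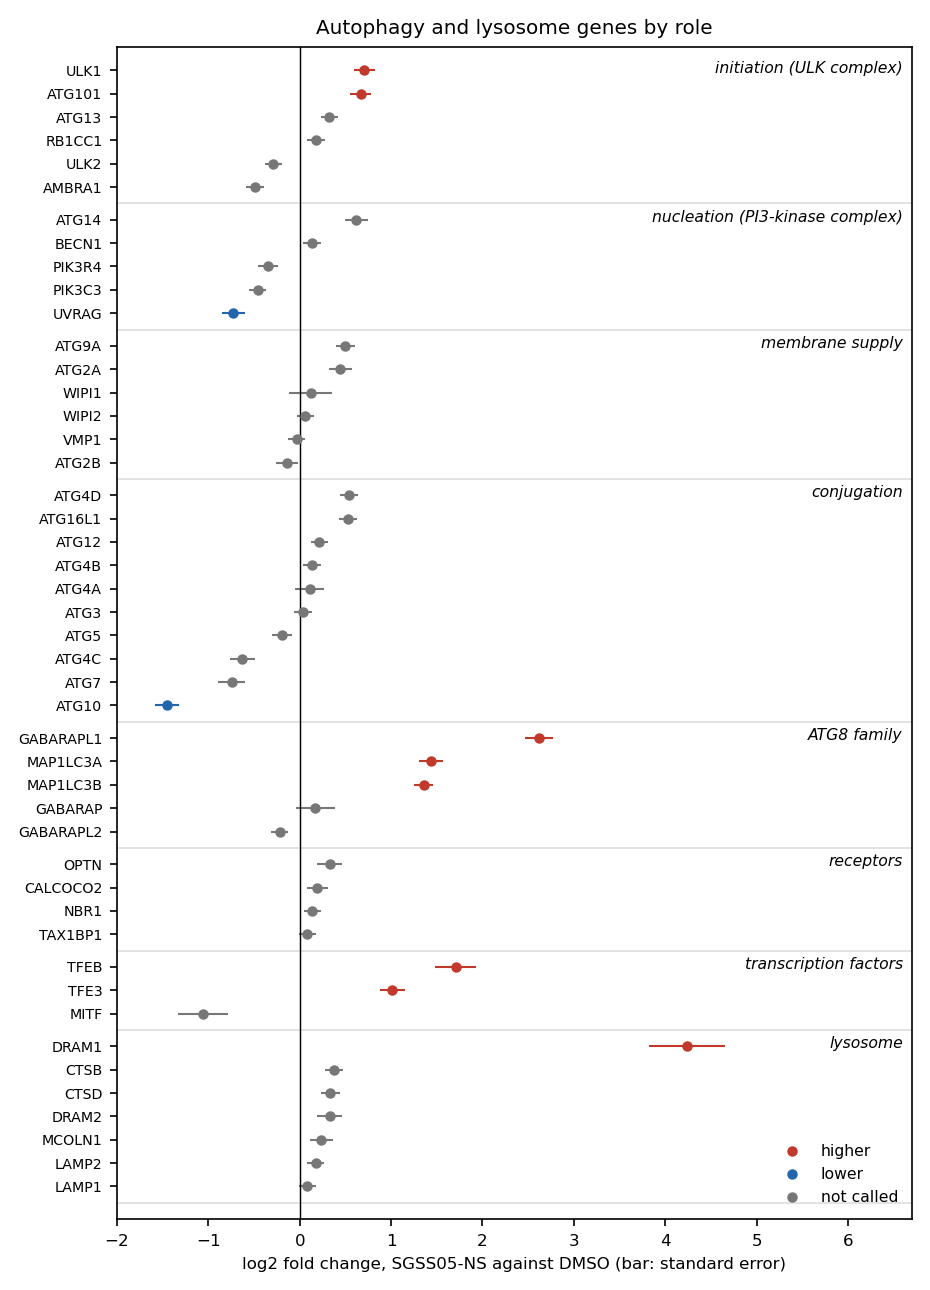
The horizontal axis gives the log2 fold change of SGSS05-NS against DMSO for each of the 46 genes, grouped by role, and bars are the standard error of the edgeR fit (2 libraries per condition). Red genes rose and blue genes fell at an adjusted p under 0.001. The receptors lie between 0.08 and 0.33 and the lysosomal genes other than DRAM1 between 0.08 and 0.38. The largest values are those of DRAM1 (4.24) and GABARAPL1 (2.62). DRAM1 passed the filter on low counts only through the SGSS05-NS libraries.

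Levels per length (FPKM, the TMM-scaled CPM divided by the kilobases of all exons of a gene) show which of these genes were abundant before treatment. With DMSO, GABARAPL2 was the highest of the 46, at 26.8 ± 0.635 FPKM (SD, n = 2), followed by LAMP1 at 20.5 ± 0.46 and RB1CC1 at 16.6 ± 0.795. RB1CC1 and NBR1, at 15.5 ± 0.559 FPKM, did not differ beyond their spread. At the low end 5 genes were under 1 FPKM: DRAM1 at 0.0474, TFEB at 0.242, MITF at 0.395, WIPI1 at 0.70 and GABARAPL1 at 0.997. Of these 5, DRAM1, TFEB and GABARAPL1 were also among the genes that rose. MITF (log2 fold change -1.06) and WIPI1 (0.12) did not pass the threshold. DRAM1 passed the filter on low counts only through its SGSS05-NS libraries, so a low control level with a rise was favoured for it in advance. Counts per length depend on the gene model, and with the longest transcript in place of all exons the level of 43 of the 46 genes moved by more than the spread between replicates. GABARAPL2 was then still the highest at 35.5 FPKM, but TAX1BP1 (33.4 FPKM), CTSB (29.9), WIPI2 (28.6) and NBR1 (28.0) came before LAMP1 (22.5). WIPI1 (1.25) and GABARAPL1 (1.26) were then above 1 FPKM, while the same 5 genes remained the lowest.

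Of the 6 initiation genes 2 rose and 0 fell, and their median log2 fold change was 0.25. ULK1, the kinase that starts autophagy (ENSG00000177169.5, chromosome 12 of GRCh37 from 132379167 to 132407695), had 36.3 and 32.6 CPM with DMSO against 61.7 and 50.8 CPM with SGSS05-NS. Both treated libraries were above both controls, although the treated pair differed from each other more than the control pair. ULK1 rose by a log2 fold change of 0.71 (SE 0.12, adjusted p = 0.00044). When libraries were scaled by size alone its value was 0.74 with an adjusted p of 0.0011, just outside the threshold. ATG101, which stabilises ATG13 in the same complex (ENSG00000123395.10, chromosome 12 from 52463030 to 52471279), had 30.1 and 30.3 CPM with DMSO and 43.6 and 52.3 CPM with SGSS05-NS. Its log2 fold change was 0.67 (SE 0.11, adjusted p = 0.00052). An annotated antisense RNA covers 19.2% of the exon bases of ATG101, and with counts taken without regard to strand the log2 fold change was 0.47 and the adjusted p 0.010. Without SGSS05-NS replicate 2 it was 0.53 (adjusted p = 0.0016), so the call of ATG101 rested on that library and on the use of strand. The other 4 genes did not pass: ATG13 had a log2 fold change of 0.32, RB1CC1 (the scaffold FIP200) 0.18, ULK2, the paralog of ULK1, -0.29, and AMBRA1, which regulates both the ULK and BECN1 complexes, -0.49 (adjusted p = 0.0015).

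The lipid kinase complex had 1 lower gene of 5, or 2 without DMSO replicate 1, and a median log2 fold change of -0.35. UVRAG, which directs PIK3C3 to endosomes and late autophagosomes (ENSG00000198382.4, chromosome 11 from 75526255 to 75855276), had 22.04 and 20.03 CPM with DMSO and 12.6 and 12.8 CPM with SGSS05-NS. Its replicates were close and the conditions did not overlap, and it fell by 0.73 on the log2 scale (SE 0.12, adjusted p = 0.00060). With libraries scaled by size alone the adjusted p of UVRAG was 0.0014. PIK3C3, the catalytic subunit, had 94.7 and 104 CPM with DMSO against 71.0 and 73.0 CPM, a log2 fold change of -0.46 (SE 0.09, adjusted p = 0.0019) that did not pass. ATG14, the subunit that directs the complex to early autophagy and is the alternative partner to UVRAG, had 15.8 and 14.2 CPM against 21.6 and 24.4 CPM, a log2 fold change of 0.62 (SE 0.13, adjusted p = 0.0019). The values of UVRAG and ATG14 thus had opposite signs, with ATG14 outside the threshold. PIK3R4, the regulatory subunit, had a value of -0.35 and BECN1, the scaffold, one of 0.14 (adjusted p = 0.27).

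None of the 6 genes of membrane supply passed the threshold in either direction. The smallest p-values were those of ATG9A, the transmembrane lipid scramblase, with 34.8 and 31.3 CPM against 49.5 and 44.05 CPM (log2 fold change 0.50, SE 0.11, adjusted p = 0.0027), and of ATG2A, with 23.2 and 19.7 CPM against 31.3 and 27.2 CPM (0.45, adjusted p = 0.012). Both SGSS05-NS libraries lay above both DMSO libraries for each of them. Over all genes tested this order was found in 37.8%. For the other lipid transfer protein, ATG2B, and for WIPI1, WIPI2 and VMP1 the libraries of the 2 conditions overlapped, and their log2 fold changes were between -0.14 and 0.12. At an adjusted p under 0.05, where 22.6% of all genes were called higher, 2 of the 6 passed, and these were ATG9A and ATG2A.

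Conjugation held the largest fall of the list. ATG10 is the E2-like enzyme that joins ATG12 to ATG5 (ENSG00000152348.11, chromosome 5 from 81267842 to 81572676), and it had 20.5 and 22.04 CPM with DMSO but 8.07 and 7.48 CPM with SGSS05-NS. The conditions were well apart, with a log2 fold change of -1.45 (SE 0.13, adjusted p = 6.7e-06), and leaving out any 1 library gave values from -1.51 to -1.40. The counts were 515 and 515 fragments against 179 and 176. Of the other 9 genes of the group none passed, although ATG7 did without DMSO replicate 2 and without SGSS05-NS replicate 2. ATG4D, an ATG8 protease, had 33.6 and 33.3 CPM against 46.3 and 50.9 CPM (log2 fold change 0.54, SE 0.10, adjusted p = 0.0011). The remaining proteases were at -0.63 for ATG4C (adjusted p = 0.0026), 0.11 for ATG4A and 0.14 for ATG4B. ATG7, the E1-like enzyme that activates both ATG12 and the ATG8 proteins, had 26.2 and 22.6 CPM against 12.5 and 16.6 CPM (log2 fold change -0.74, SE 0.15, adjusted p = 0.0017). ATG3, the E2-like enzyme for ATG8 proteins, was at 0.03 and ATG12 at 0.21. ATG16L1, which brings the ATG12 and ATG5 conjugate to the membrane, was at 0.52 (adjusted p = 0.0011), and ATG5 was at -0.20. The median of the 10 genes was 0.07, with 6 positive and 4 negative values.

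The ATG8 family held 3 of the 8 genes that rose, out of 5 members, and had a median log2 fold change of 1.36. GABARAPL1 (ENSG00000139112.6, chromosome 12 from 10365057 to 10375727) had 90 and 105 fragments with DMSO and 568 and 563 with SGSS05-NS, which is 3.59 and 4.49 CPM against 25.6 and 23.9 CPM. The counts of each condition were close to each other and far from those of the other. GABARAPL1 rose 6.13-fold in mean CPM, with a log2 fold change of 2.62 (SE 0.15, adjusted p = 2.3e-07), and ranked 50 among all genes tested by p-value. MAP1LC3B (ENSG00000140941.8, chromosome 16 from 87417559 to 87438385), the LC3 gene most used as a marker of autophagosomes, had 35.9 and 42.2 CPM against 98.0 and 102 CPM, a log2 fold change of 1.36 (SE 0.10, adjusted p = 1.75e-06). MAP1LC3A (ENSG00000101460.8, chromosome 20 from 33134658 to 33148149) had 10.8 and 9.33 CPM against 26.0 and 28.7 CPM, a log2 fold change of 1.44 (SE 0.13, adjusted p = 6.1e-06). The 3 calls held in each of the 12 other fits tried. GABARAPL2, the most abundant member per length, had 79.4 and 82.1 CPM against 66.2 and 72.5 CPM, a log2 fold change of -0.22 (SE 0.09, adjusted p = 0.075). GABARAP had 71 and 71 fragments against 70 and 81 (log2 fold change 0.17, adjusted p = 0.54). A read-through gene that shares 35.4% of the exon bases of GABARAP, on the same strand, had 0 fragments in all 4 libraries. Fragments in the shared part are ambiguous to the counter and go to neither gene, so the level of GABARAP may be an underestimate. MAP1LC3B2, a near-identical copy of MAP1LC3B, was also listed at 0 in every library, and fragments that map to both copies are not counted, so levels of MAP1LC3B may be too low in all libraries.

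The make-up of the family differed between the conditions. Per kilobase of exon, GABARAPL2 made up 58.3% and 58.7% of the summed level of the 5 genes with DMSO, and 30.6% and 31.3% of it with SGSS05-NS. MAP1LC3A went from 20.7% and 17.4% to 31.3% and 32.4%, and MAP1LC3B from 15.8% and 18.1% to 27.1% and 26.3%. GABARAPL1 went from 1.96% and 2.39% to 8.78% and 7.67%, so it stayed a minor member in spite of having the largest fold change. The shares are given without a test, and the possible underestimates of GABARAP and MAP1LC3B apply to them. They also depend on the gene model. With the longest transcript in place of all exons, MAP1LC3B (12.5 FPKM) was above MAP1LC3A (10.4 FPKM) with DMSO. The order of the LC3 genes is therefore not settled.

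**Figure D2:**
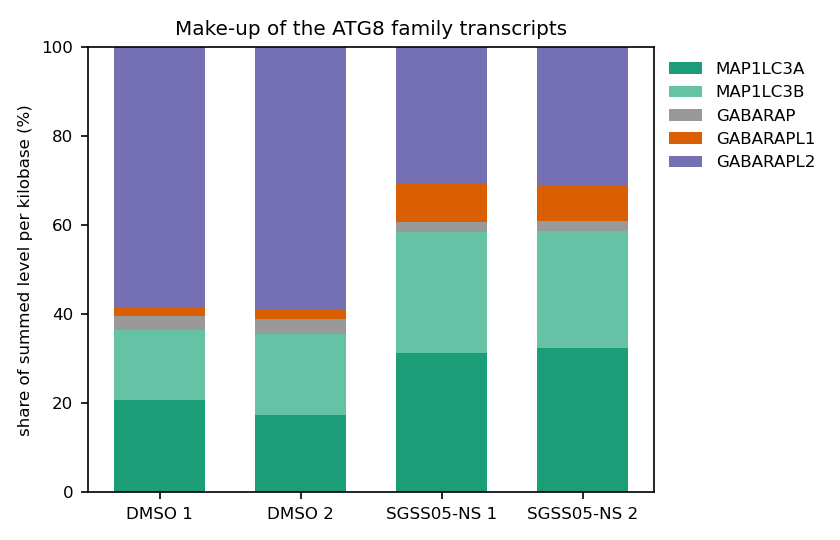
Bars show, for each of the 4 libraries, the share of each gene in the summed level per kilobase of the 5 ATG8 family genes, in percent. GABARAPL2 holds 58.3% and 58.7% of the DMSO bars but 30.6% and 31.3% of the SGSS05-NS bars, where the 2 LC3 genes together are larger.

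The 4 autophagy receptors of the list did not pass the threshold in either direction, and their log2 fold changes lay between 0.08 and 0.33, all positive. OPTN, a receptor for mitochondria and protein aggregates, had 10.9 and 10.6 CPM against 13.9 and 13.1 CPM (log2 fold change 0.33, SE 0.13, adjusted p = 0.063). CALCOCO2, also known as NDP52, had 29.7 and 28.1 CPM against 35.4 and 30.7 CPM (0.19, SE 0.11, adjusted p = 0.18). NBR1, with 2964 to 3377 fragments in each library, was at 0.14 (SE 0.09), and TAX1BP1, with 3238 to 3260 fragments, was at 0.08 (SE 0.09). SQSTM1, the receptor p62, is no member of the list, and it rose from 57.2 and 52.4 CPM to 334 and 311 CPM (log2 fold change 2.56, SE 0.10, adjusted p = 9.1e-09).

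The transcription factors had 2 of 3 genes higher. TFEB (ENSG00000112561.13, chromosome 6 from 41651716 to 41703997) had 45 and 34 fragments with DMSO and 109 and 135 with SGSS05-NS, that is 1.79 and 1.46 CPM against 4.91 and 5.74 CPM. It rose by a log2 fold change of 1.71 (SE 0.23, adjusted p = 9.6e-05). TFE3 (ENSG00000068323.12, chromosome X from 48886237 to 48900936) had 8.65 and 9.33 CPM against 19.1 and 17.2 CPM and rose by 1.01 (SE 0.14, adjusted p = 0.00011). MITF, known for its role in pigment cells, had 61 and 80 fragments against 27 and 37. Its log2 fold change was -1.06 (SE 0.27, adjusted p = 0.0079), outside the threshold, and leaving out single libraries moved it between -1.30 (adjusted p = 0.000615 without DMSO replicate 1) and -0.81 (adjusted p = 0.060 without DMSO replicate 2). The conditions did not overlap for any of the 3 factors. Over all genes tested, both SGSS05-NS libraries lay above both DMSO libraries in 37.8% and below them in 36.9%.

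All 7 lysosomal genes had positive values, with both SGSS05-NS libraries above both DMSO libraries, an order found in 37.8% of all genes tested. Only DRAM1 passed the threshold, and the median log2 fold change of the 7 was 0.33. That median was 0.17 without DMSO replicate 2 and 0.21 without SGSS05-NS replicate 2. DRAM1, a lysosomal membrane protein and known p53 target (ENSG00000136048.9, chromosome 12 from 102271358 to 102405908), had 4 and 5 fragments with DMSO and 99 and 65 with SGSS05-NS. The gene was nearly silent in control cells, and its treated libraries were at 4.46 and 2.76 CPM. Scaled to library size, the ratio of treated to control counts came to 19.3, with an exact binomial 95% interval from 9.93 to 43.0 that covers counting error only. DRAM1 passed the filter on low counts only through its SGSS05-NS libraries, where it was high. The fitted log2 fold change of 4.24 (SE 0.41, adjusted p = 1.0e-05) rests on very few control counts. It was 3.44 with counts taken without regard to strand, and the gene was not tested when at least 10 counts were required in every library. Its paralog DRAM2 had 21.7 and 17.6 CPM against 22.6 and 26.7 CPM, a log2 fold change of 0.33 (adjusted p = 0.066). CTSB, a cysteine protease, had 134 and 116 CPM against 163 and 161 CPM (log2 fold change 0.38, SE 0.10, adjusted p = 0.0083). CTSD, an aspartic protease, was at 0.33 (adjusted p = 0.018). A read-through gene with 0 fragments in all 4 libraries shares 22.9% of the exon bases of CTSD, so its level may also be an underestimate. The membrane glycoproteins LAMP1 and LAMP2 were at 0.08 (SE 0.09) and 0.18 (SE 0.10), and MCOLN1, a calcium channel of the lysosome, at 0.24 (adjusted p = 0.15).

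**Figure D3:**
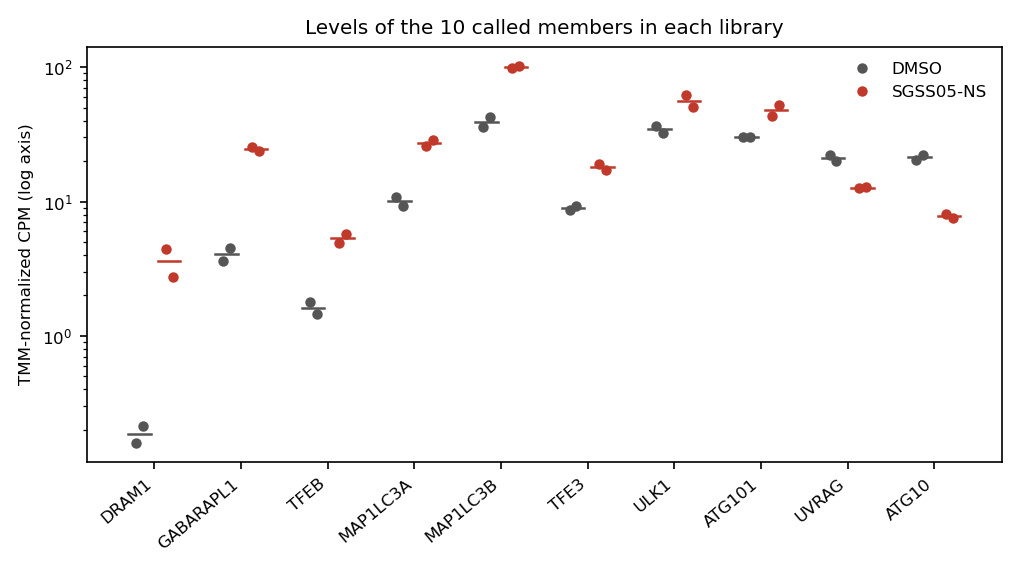
Points are the TMM-normalized CPM of each library on a log axis for the 10 genes that passed the threshold, and lines are the mean of 2 libraries. The 2 conditions do not overlap for any of them, and genes that passed the threshold were selected for such a difference. DRAM1 is the lowest with DMSO (0.159 and 0.214 CPM) and has the widest spread with SGSS05-NS.

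The start of each gene was searched for the letters that TFEB and its relatives bind. RefSeq promoter windows, 250 bases before to 50 after the start, were matched for 40 of the 46 genes (the table uses GRCh38.p14). The E-box CACGTG, which reads the same on both strands, was in the windows of LAMP1, MCOLN1, CTSD, ATG3 and ATG14, and in 7.26% of all 35093 windows. The longer TCACGTGA, the core of the CLEAR element of lysosomal genes, always contains CACGTG, and was in those of LAMP1, MCOLN1 and ATG3 and in 0.98% of all. None of these 5 genes passed the threshold, as was so for 36 of the 46. The shares of all are counted per window but members per gene, some with more than 1 window. Of the 8 genes that rose 7 had a window, and CACGTG was in 0 of the 7. With CACGTG in 7.26% of all windows, 0 of 7 is too few genes to differ from that share. TGACNNNGC, the antioxidant response element searched on both strands, was in the windows of 6 members (ATG101, MAP1LC3B, CALCOCO2, DRAM2, LAMP1 and CTSD) and in 13.4% of all. The heat shock element was in 0 of the members' windows and in 0.49% of all. The cAMP response element TGACGTCA, which was added after the GABARAPL1 sequence had been seen, was in the windows of GABARAPL1 and MITF and in 1.85% of all. Letters in a window are a description and do not show that a factor binds.

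The stretches that follow come from RefSeq and were placed on GRCh37 by exact match, all on the plus strand. They set 2 ATG8 genes that rose beside 2 lysosomal genes that carry the E-box and did not pass the threshold. The genes were picked for these traits, and whether TFEB or its relatives act on them was not tested. Each holds the 60 bases before the RefSeq start, and that of LAMP1 also the first 10 bases of the transcript. Capitals mark TGACGTCA in GABARAPL1 (chr12:10365416-10365475), TGACNNNGC in MAP1LC3B (chr16:87425882-87425941), and CACGTG in LAMP1 (chr13:113951494-113951563) and MCOLN1 (chr19:7587450-7587509).
GABARAPL1: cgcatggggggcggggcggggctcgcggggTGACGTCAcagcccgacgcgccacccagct
MAP1LC3B: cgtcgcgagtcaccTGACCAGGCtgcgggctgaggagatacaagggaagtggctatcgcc
LAMP1: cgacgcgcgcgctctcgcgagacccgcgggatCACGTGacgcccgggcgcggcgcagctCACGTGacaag
MCOLN1: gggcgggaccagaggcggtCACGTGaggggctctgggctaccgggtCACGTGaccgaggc

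By gene extent, the 2 genes that fell were also the longest of the list. UVRAG spans 329 kb and ATG10 305 kb, and they were the only members over 300 kb. Among all 571 protein-coding genes of that length, 58.5% were called lower and the median log2 fold change was -1.09, so the values of UVRAG (-0.73) and ATG10 (-1.45) lay on either side of it. Of the 9 members between 100 and 300 kb, 6 had negative values, with a median of -0.20 against -0.34 for the 2081 genes of that length. They include ATG7 (285 kb), ATG5 (280 kb), MITF (229 kb), AMBRA1 (198 kb) and PIK3C3 (133 kb). DRAM1 also falls in this bin at 135 kb, but only because 1 partial transcript of GENCODE release 44 extends it, and its canonical transcript spans 46 kb. Of the 16 members between 10 and 30 kb, 5 rose (ULK1, MAP1LC3A, MAP1LC3B, GABARAPL1 and TFE3) and 15 had positive values, where 10.5% of the 3486 genes of that length were called higher. Spearman's correlation between genomic length and log2 fold change was -0.60 across the 46 genes and -0.42 across the 12567 protein-coding genes tested. Both are descriptions over genes that share the same 4 libraries, and genes are not independent replicates. Measured by the canonical transcript, a measure added after the data were seen, ATG10 spans 284 kb and UVRAG 329 kb. ATG7 (285 kb) is then longer than ATG10, and ATG5 spans 141 kb. The change of measure moved ATG10 into the bin from 100 to 300 kb. It moved out DRAM1, RB1CC1 (92 kb) and TAX1BP1 (89.6 kb), the members there with positive values. The 7 members from 100 to 300 kb then had a median of -0.49 and negative values in all 7, against a median of -0.42 for the 1766 genes of that length, and the correlation was -0.67 across the 46 genes. The annotation used for counting was an older release, so the extents may differ from those counted. By gene extent, the conjugation group mixes both ends, with ATG10, ATG7 and ATG5 at or above 280 kb and ATG4D at 9.52 kb.

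**Figure D4:**
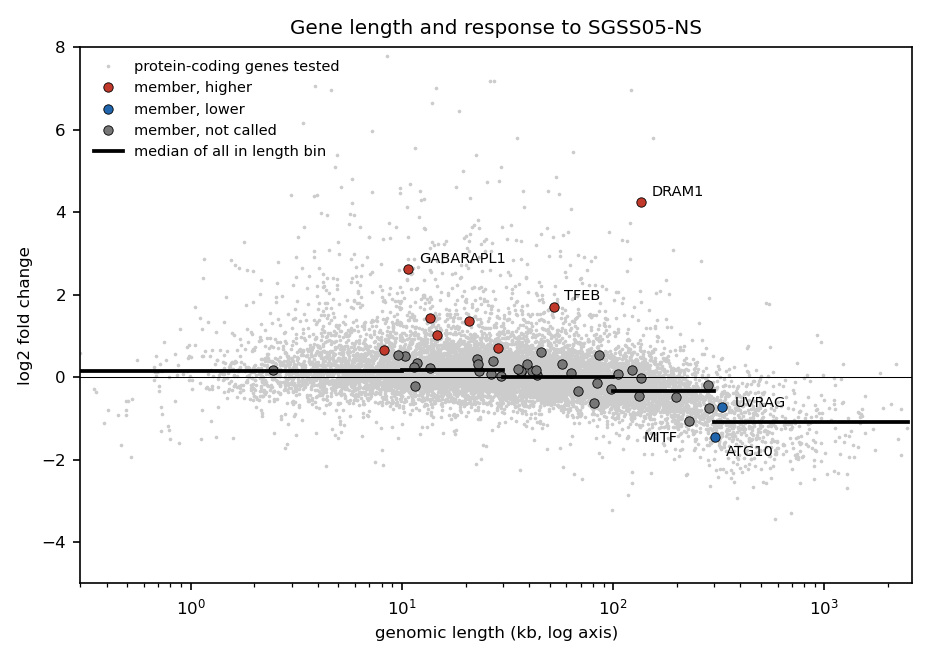
Genomic length (log axis, in kb) is plotted against the log2 fold change, with the 46 genes as large points over the protein-coding genes tested in grey and black lines for the median in each length bin. The axis runs from -5 to 8, and 3 genes outside it are not drawn. The 2 blue points (UVRAG and ATG10) lie in the longest bin, where the median of all genes is -1.09.

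Other genes of the pathway, taken as 5 further lists, were counted in the same way. The lists were chosen with earlier results of these data known. Over all genes tested, 6.37% were called higher and 8.14% lower. In the full set, only other autophagy genes and mTORC1 and AMPK control had a share of higher calls above this. No list had a share of lower calls above it. Of 39 other autophagy genes tested, 4 rose and 2 fell, and the median log2 fold change was 0.15. Without SGSS05-NS replicate 1 only 1 fell. SQSTM1 was the largest of them. TP53INP1, a p53 target that binds ATG8 proteins, rose by 1.91 (SE 0.12, adjusted p = 4.8e-07), from 42.0 and 52.2 CPM to 191 and 162 CPM. TP53INP2, its paralog, rose by 1.22 (adjusted p = 0.00027). Also called in this list, and named after their values were seen, were ATG16L2 and WDFY3. ATG16L2, a paralog of ATG16L1, was at 1.10 and WDFY3, an adaptor for aggregates, at -0.63. WDFY3 spans 298 kb, and 21.6% of protein-coding genes from 100 to 300 kb were called lower. A part of length in its value was not tested. Of 16 subunits of the V-ATPase, the proton pump that acidifies the lysosome, 1 rose and 0 fell. The number that rose was 3 without SGSS05-NS replicate 1. The gene called in the full set was ATP6V0A1, with 53.1 and 51.4 CPM against 86.0 and 84.6 CPM (log2 fold change 0.71, SE 0.09, adjusted p = 8.3e-05). ATP6V1D was next at 0.51 (adjusted p = 0.0011) and ATP6V0B at 0.44 (adjusted p = 0.0038).

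Of 40 other lysosomal hydrolases and activators tested, 2 rose and 1 fell, with a median of 0.09. In the full set neither count was above the share over all genes, 6.37% higher and 8.14% lower. The number that rose was 6 without DMSO replicate 1, where the median was 0.20, and 3 without any other single library. NEU1, a sialidase, rose from 10.5 and 9.80 CPM to 23.3 and 28.0 CPM (log2 fold change 1.34, SE 0.14, adjusted p = 1.4e-05), and IDS, iduronate sulfatase, rose by 0.76 (adjusted p = 0.00039). ARSB, arylsulfatase B, fell from 62.0 and 56.5 CPM to 29.8 and 29.2 CPM (log2 fold change -1.01, adjusted p = 1.2e-05). ARSB spans 209 kb, and protein-coding genes from 100 to 300 kb had a median of -0.34, with 21.6% called lower. Whether length had a part in its fall was not tested. Of 21 other lysosomal membrane and transport proteins 1 rose, SIDT2, a nucleic acid transporter, from 9.21 and 8.65 CPM to 16.99 and 16.8 CPM (0.92, adjusted p = 0.00018). SLC66A1 was at 0.70 (adjusted p = 0.0014) and CLCN7 at 0.40 (adjusted p = 0.0053).

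Upstream of the ULK complex stand mTORC1, which restrains autophagy when amino acids are plentiful, and AMPK, which promotes it when energy is low. Of 36 genes of this control tested, 4 rose and 1 fell, and the median was -0.01. DDIT4, also known as REDD1, an inhibitor of mTORC1 under stress, rose from 23.5 and 21.4 CPM to 81.5 and 100 CPM (log2 fold change 2.01, SE 0.12, adjusted p = 2.4e-07). RPTOR, the mTORC1 subunit that recruits substrates, fell from 87.3 and 91.1 CPM to 26.1 and 29.8 CPM (log2 fold change -1.67, SE 0.10, adjusted p = 3.2e-07). Long genes were often called lower, 21.6% of protein-coding genes from 100 to 300 kb and 58.5% of those over 300 kb. Whether gene length had a part in the fall of RPTOR was not tested. FLCN, which acts on the Rag GTPases at the lysosome, rose from 12.3 and 11.7 CPM to 23.2 and 24.2 CPM (0.98, adjusted p = 5.9e-05). The others that rose, also named after their values were seen, were RRAGC, a Rag GTPase, at 0.97 and PRKAB1, a subunit of AMPK, at 0.89.

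**Figure D5:**
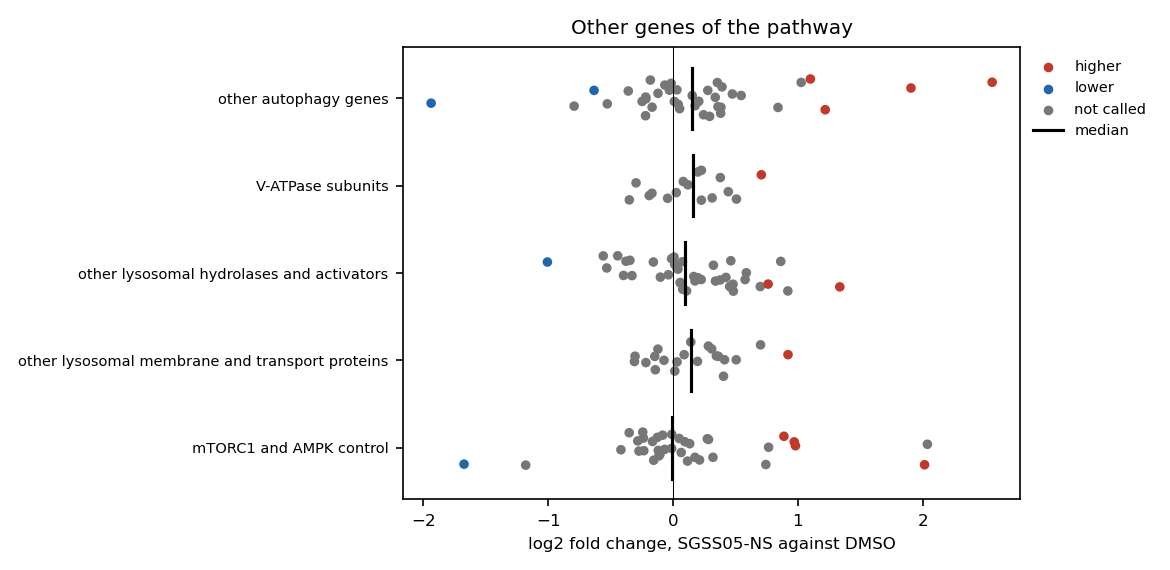
Each point is the log2 fold change of 1 gene of 5 further lists of the pathway, spread vertically only so that points can be seen, and black lines are medians. Medians lie between -0.01 (mTORC1 and AMPK control) and 0.16 (V-ATPase subunits), and red and blue points passed an adjusted p under 0.001.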

How the data were processed

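RNA from 4 SY5Y libraries was sequenced from stranded libraries of total RNA depleted of ribosomal RNA. The authors made the deposited counts, which are whole numbers of fragments per gene, with Trimmomatic 0.30 and STAR 2.4.2a on hg19 with GENCODE 19 (processing notes and methods of the study). Column 4 of each file, the reverse-strand count, was used and column 2, which ignores strand, served as an alternative. The 4 summary rows of each file stayed out of library sizes and tests. They held 37.3% to 38.8% of fragments.

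Symbols, positions and exon lengths came from GENCODE release 44 lifted to GRCh37, the same build, which gave symbols for 55538 of 57820 gene identifiers. Genes were filtered with filterByExpr, scaled by TMM and tested with edgeR 4.0.16 (quasi-likelihood test, Benjamini-Hochberg adjustment) in R 4.3.3, SGSS05-NS against DMSO, with an adjusted p under 0.001 as the threshold. The study names edgeR 3.10.5. Replicate numbers were not used as a block. With 2 libraries per condition no exact permutation test can reach the threshold, so p-values come from the edgeR fit, which shares its spread estimate over genes. On simulated data of 16468 genes with 200 changed, 86.5% were recovered (79% at 2-fold) with 0 false calls. The real data had many more genes called, 1049 higher and 1341 lower, so these rates may not carry over to them.

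Gene totals were 21463105 to 25350204 fragments per library. Named are all called members, the 2 members with the smallest p per role, and the 3 smallest p of each further list plus SQSTM1 and TP53INP1. Members and lists were chosen with earlier results of these data known. Alternatives were the likelihood ratio test, DESeq2 1.42.0, DESeq2 size factors, scaling by library size only, no filter, at least 10 counts in every library, counts without strand, a replicate block, other thresholds and leaving out each library. Levels per length were also computed with the longest transcript. The value of 1 called gene of a further list is not reported here. The span of the canonical transcript, as a second measure of gene length, was added after the data were seen.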

Additional observations from a re-analysis of the deposited data

How the results depend on the processing

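None of the 10 called members changed direction, and 9 of the 12 other fits kept all 10 calls or lost only a gene they did not test. UVRAG and ULK1 were lost with libraries scaled by size only, and ATG101 without strand and without SGSS05-NS replicate 2, while DRAM1 was not tested with at least 10 counts in every library. The causes were not tested. Counts below are genes called, given as higher or lower. With all 46 genes the number lower was 7 with the likelihood ratio test (15.2%, against 13.8% of all genes), 5 with DESeq2 (10.9% against 9.57%), 1 by library size only (2.17% against 6.05%), 7 with no filter (15.2% against 8.36%) and 6 with a replicate block (13% against 12.2%), and at adjusted p thresholds of 0.05 and 0.01 it was 9 and 7 with 16 and 13 higher. The share lower among the 46 was thus below that of all genes in the reported fit and above it in 4 of these fits, while the share higher was above it in all 12 other fits. Depth limits TFEB, MITF, GABARAP, WIPI1 and DRAM1, whose control counts were at most 80 fragments.

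The likelihood ratio test gave 1 higher and 2 lower nucleation genes, 1 lower initiation gene, 1 higher membrane supply gene, 2 higher and 3 lower conjugation genes, 1 lower transcription factor, 4 lower other autophagy genes, 3 higher V-ATPase subunits, 7 higher and 3 lower hydrolases, 2 higher membrane proteins and 2 lower mTORC1 and AMPK genes. With no filter these counts were the same, except for 5 higher and 4 lower hydrolases. The likelihood ratio test called 12.3% of all genes higher and 13.8% lower, and the fit with no filter 6.61% and 8.36%. DESeq2 gave 1 lower initiation, 2 lower nucleation, 2 higher and 2 lower conjugation genes, 2 higher V-ATPase subunits, 2 higher membrane proteins and 2 lower mTORC1 and AMPK genes, whose median was -0.0159. DESeq2 called 6.84% of all genes higher and 9.57% lower. By library size only, 1 initiation gene was higher and 0 nucleation genes lower. With at least 10 counts, 0 lysosome genes and 2 V-ATPase subunits were higher, and without strand 1 initiation gene was higher. Over all genes the shares higher and lower were 5.64% and 6.05% by library size only. With at least 10 counts they were 6.21% and 8.44%, and without strand 5.37% and 7.95%.

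Deviations of same-numbered libraries correlated at 0.053. With 2 libraries per condition this cannot show whether the samples were handled in pairs. The replicate block called 10.7% of all genes higher and 12.2% lower. With the replicate block, 1 initiation gene was lower, nucleation had 1 higher and 2 lower, membrane supply 1 higher, conjugation 2 higher and 3 lower, V-ATPase 2 higher, hydrolases 6 higher and 2 lower, and membrane proteins 2 higher.

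At an adjusted p under 0.05, nucleation had 1 higher and 3 lower, initiation 2 lower, membrane supply 2 higher, conjugation 2 higher and 3 lower, transcription factors 1 lower, lysosome 3 higher, other autophagy genes 14 higher and 5 lower, V-ATPase 5 higher and 2 lower, hydrolases 12 higher and 8 lower, membrane proteins 5 higher, and mTORC1 and AMPK genes 9 higher and 6 lower. At that threshold 22.6% of all genes were called higher and 23.7% lower. Under 0.01 the counts were 1 and 2 in nucleation, 1 lower in initiation, 1 higher in membrane supply, 2 and 3 in conjugation, 1 lower among transcription factors, 2 higher in lysosome, 9 and 5 among other autophagy genes, 3 higher in V-ATPase, 8 and 4 among hydrolases, 3 higher among membrane proteins, and 7 and 2 in mTORC1 and AMPK control. The shares over all genes were not computed at 0.01, so counts at that threshold have no background beside them.

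Median log2 fold changes moved beyond the spread between replicates as follows. By library size only, which moved the median of all genes to 0.04, they were 0.20 for all 46, 0.28 for initiation, 0.10 for conjugation, 0.19 for other autophagy genes, 0.17 for membrane proteins and 0.021 for mTORC1 and AMPK genes. With no filter they were 0.15 for all 46, 0.22 for initiation, 0.044 for conjugation, 0.052 for other autophagy genes and -0.037 for mTORC1 and AMPK genes. Without strand they were 0.14, 0.20, 0.022, 0.014 and 0.0048 in the same order, and 0.26 for lysosome. With at least 10 counts the mTORC1 and AMPK median was 0.0017.

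Leaving out single libraries gave, for all 46, medians of 0.15 to 0.17. These fits leave 1 library in a condition, and list counts from them are given without the share over all genes. Initiation had 1 to 2 higher, 0 to 1 lower and medians of 0.21 to 0.27, nucleation 0 to 1 higher, 1 to 2 lower and -0.45 to -0.24, membrane supply 0 to 1 higher and 0.021 to 0.14, and conjugation 0 to 1 higher, 1 to 2 lower and 0.024 to 0.078. Transcription factors had 0 to 1 lower and medians of 0.93 to 1.09, ATG8 genes 1.24 to 1.38, receptors 0.11 to 0.21 and lysosome 0.17 to 0.39. Other autophagy genes had 4 to 5 higher, 1 to 3 lower and 0.095 to 0.14, V-ATPase 1 to 3 higher and 0.093 to 0.17, hydrolases 3 to 6 higher, 1 to 2 lower and 0.089 to 0.20, membrane proteins 1 to 2 higher and 0.050 to 0.15, and mTORC1 and AMPK genes 4 to 5 higher and -0.030 to 0.032. The genes gained were ATG16L1, MITF, ATG14 and PIK3C3 without DMSO replicate 1, ATG7 and AMBRA1 without DMSO replicate 2, ATG14 and ATG4D without SGSS05-NS replicate 1, and ATG9A and ATG7 without SGSS05-NS replicate 2.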
